A study of Mus musculus with 18 samples.

Results

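The killer lectin-like receptor genes Klrk1, Klrd1, Klrc1, Klrc2, Klrc3, Klre1, Klrg1 and Klrb1c were followed as a named family on mouse chromosome 6, 8 of the 21519 protein-coding genes measured. The measurement was chromatin immunoprecipitation and sequencing of H3K79me2, dimethylated lysine 79 of histone H3, the mark that the methyltransferase DOT1L writes along the bodies of transcribed genes. For each gene the value is the percent of its annotated body covered by the merged H3K79me2 peaks of a library. The series asked what DOT1L does in T helper cells. Its 9 H3K79me2 libraries fell into 3 groups of 3, all of genotype WT with no gene deleted.

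The Th1 cells were CD4+ T cells grown for 4 days on plates coated with antibodies to CD3 and CD28, in IL-12 plus IL-2 with IL-4 blocked by antibody, and then sorted as YFP-positive from an IFNg-YFP reporter mouse. The Th2 cells were grown for the same time on the same coating, in IL-4 plus IL-2 with IFNg blocked by antibody, and were sorted by IL-4 AmCyan or IL-13 dsRed from the 4C13R reporter mouse. The naive cells, labelled CD4+ T cells like the others, were CD44- CD62L+ cells taken straight from spleens, without culture or a reporter. Stimulation, culture, the reporter allele and the sort therefore cannot be told apart from the cell type against naive cells, and the sort, the reporter, the cytokines and the blocking antibody cannot be told apart from it between Th1 and Th2 cells either. Ages were not given in the labels. Nothing in the labels says that replicate libraries were made from different mice. The p-values therefore set group differences against the spread of libraries, which may not be that of mice, and part of that spread may be technical.

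These genes encode C-type lectin-like membrane proteins best known from natural killer (NK) cells and effector CD8 T cells. Klrk1 encodes the activating receptor NKG2D, which signals through the adaptor DAP10 and, in the mouse, also DAP12. Klrd1 encodes CD94, which pairs with the inhibitory NKG2A (Klrc1) or the activating NKG2C and NKG2E (Klrc2 and Klrc3) to bind the non-classical MHC molecule Qa-1. Klre1 encodes a partner of the KLRI receptors in rodents, Klrg1 an inhibitory receptor for cadherins, and Klrb1c the antigen NK1.1. In the T lineage these receptors are known mainly from CD8 effector and innate-like cells.

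Of the 8 genes, 6, written here in the order of their coordinates, lay next to each other: Klre1 (chr6:129559365-129585828), Klrd1 (chr6:129588092-129598775), Klrk1 (chr6:129610323-129623903), Klrc3 (chr6:129636263-129643511), Klrc2 (chr6:129649602-129660737) and Klrc1 (chr6:129666015-129682852), on GRCm38.p6, the assembly of mm10. Klrb1c (chr6:128778485-128788641) and Klrg1 (chr6:122270596-122282833) lay apart from them on the same chromosome. No member overlapped another protein-coding gene. RefSeq promoter windows on GRCm38.p6, 300 bases from 250 before to 50 after a start site, were matched for 6 of the 8 genes. The windows of 5 cluster genes are printed to set the near-identical pair of Klrc3 and Klrc2, which held no peak in any library, beside the other 3. Capitals mark the RUNX core TGTGGT or its reverse complement ACCACA.
Klrk1: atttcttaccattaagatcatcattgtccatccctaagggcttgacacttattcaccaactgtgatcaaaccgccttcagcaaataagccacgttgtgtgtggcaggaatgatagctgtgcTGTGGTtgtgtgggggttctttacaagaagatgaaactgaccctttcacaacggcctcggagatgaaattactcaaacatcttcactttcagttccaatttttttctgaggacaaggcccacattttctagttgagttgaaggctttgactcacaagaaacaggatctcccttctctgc
Klre1: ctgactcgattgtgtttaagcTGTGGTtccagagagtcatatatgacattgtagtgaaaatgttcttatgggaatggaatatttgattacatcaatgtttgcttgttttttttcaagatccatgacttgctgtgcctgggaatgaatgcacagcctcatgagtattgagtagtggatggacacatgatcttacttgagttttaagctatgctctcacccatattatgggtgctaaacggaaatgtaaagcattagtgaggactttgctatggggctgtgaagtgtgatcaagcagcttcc
Klrc1: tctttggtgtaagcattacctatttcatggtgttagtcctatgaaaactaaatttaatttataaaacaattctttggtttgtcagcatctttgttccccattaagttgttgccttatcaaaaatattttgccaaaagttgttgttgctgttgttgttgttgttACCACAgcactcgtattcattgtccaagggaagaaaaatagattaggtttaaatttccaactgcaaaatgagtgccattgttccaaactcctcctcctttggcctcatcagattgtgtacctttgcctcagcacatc
Klrc3: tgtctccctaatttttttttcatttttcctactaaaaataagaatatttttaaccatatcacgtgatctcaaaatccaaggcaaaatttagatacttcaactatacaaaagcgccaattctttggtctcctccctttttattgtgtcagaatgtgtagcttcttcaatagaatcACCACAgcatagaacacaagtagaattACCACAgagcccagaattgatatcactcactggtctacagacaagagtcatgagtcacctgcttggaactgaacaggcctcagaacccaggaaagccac
Klrc2: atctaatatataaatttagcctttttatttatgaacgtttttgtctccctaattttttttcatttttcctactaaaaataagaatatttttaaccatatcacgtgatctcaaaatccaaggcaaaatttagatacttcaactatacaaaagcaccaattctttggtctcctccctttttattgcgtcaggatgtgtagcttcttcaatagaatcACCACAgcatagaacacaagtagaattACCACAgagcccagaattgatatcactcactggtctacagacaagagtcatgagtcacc
The Klrk1 window was chr6:129623815-129624114 on the minus strand and the Klre1 window chr6:129577963-129578262 on the plus strand. The Klrc1 window was chr6:129678924-129679223, the Klrc3 window chr6:129643239-129643538 and the Klrc2 window chr6:129660547-129660846, all on the minus strand. Their start sites lay 18848 bp inside the annotated gene for Klre1 and 3879 bp inside it for Klrc1, but 39, 223 and 141 bp from its end for Klrk1, Klrc3 and Klrc2, so that the windows do not lie at like positions. In the Th1 libraries the Klre1 and Klrc1 windows were covered at 100% in each, the Klrk1 window at 100, 100 and 9%, and the Klrc3 and Klrc2 windows at 0%. In the Th2 and naive libraries all 5 windows, and that of Klrb1c, were at 0%.

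The RUNX core was found on either strand in 6 of 6 member windows, the Klrb1c window included, against 16.8% of all 32851 promoter windows. The T-box core AGGTGT (reverse complement ACACCT) was in 0 of 6 against 13.7%, and the AP-1 motif TGACTCA (reverse complement TGAGTCA) in 3 of 6, those of Klrk1, Klrc3 and Klrc2, against 5.20%. The RUNX core can share letters with either of the other 2 motifs. The 6 windows are not independent: those of Klrc3 and Klrc2 were identical at 256 of 260 aligned positions (98.5%). These are descriptions of letters in a window, not of binding.

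Across the cluster, Th1 cells carried H3K79me2 over almost all of Klrd1 and Klrk1 and most of Klre1 and Klrc1, while Th2 and naive cells carried little or none. Of the 7 members that could be tested, 6 were called higher and 0 lower in Th1 than in naive cells, where 4.38% of all 11597 tested genes were called higher and 16.3% lower. The same 6 were called higher in Th1 than in Th2 cells, and 0 lower, where 1.56% of tested genes were called higher and 2.08% lower. A call is a limma adjusted p under 0.05 (Benjamini-Hochberg over all genes tested) with a difference of at least 25 percentage points. In these 6 genes every Th1 library also lay above every naive and every Th2 library, as in 14.2% and 13.9% of the tested genes. In these bulk samples a larger share of cells with the mark and more of it per cell cannot be told apart. Klrb1c was tested and not called, and Klrg1, at 0% in all 9 libraries, could not be tested. Klrc1, Klrc2, Klrc3 and Klrb1c were at 0% in all Th2 and naive libraries. They entered the test through Th1 coverage alone and could not be called lower in Th1 cells, so the counts are in part fixed beforehand. Klre1 (means of 0% in naive and 1.54% in Th2 cells) and Klrd1 (19.3 and 7.52%) also lay too low to fall by 25 points. Klrk1 (26.9 and 2.60%) could be called lower against naive cells alone. No tested member could thus be called lower in Th1 than in Th2 cells. With genes of 1 value in all libraries kept and no variance trend, 6 members were called higher against naive and 5 against Th2 cells. The shares over all genes were then 2.28% and 0.720%.

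**Figure D1:**
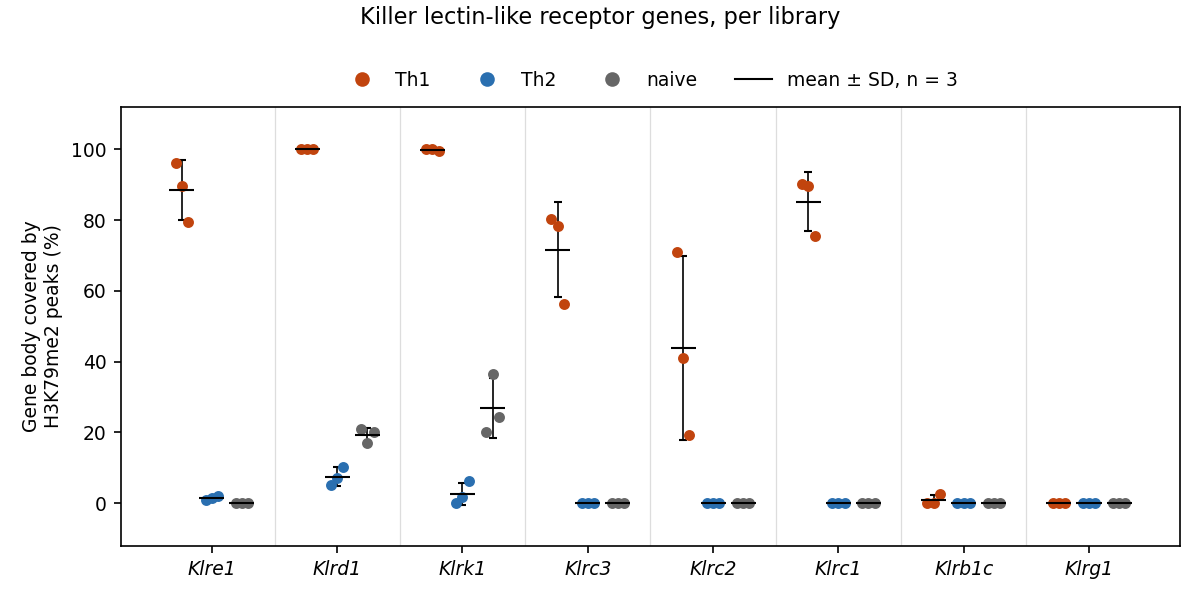
Percent of the gene body covered by H3K79me2 peaks (vertical axis) for the 8 killer lectin-like receptor genes, with 1 point per library and the mean ± SD of 3 libraries per group. The Th1 points of Klre1, Klrd1, Klrk1, Klrc3, Klrc2 and Klrc1 lie above all Th2 and naive points, the Th1 points of Klrc2 spread from 19.3 to 71.1%, and Klrb1c and Klrg1 stay at or near 0%.

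Klrd1, the gene of the chain shared by the CD94-NKG2 receptors, was covered at 100% in each Th1 library, at 5.18, 7.08 and 10.3% in the Th2 libraries and at 20.9, 17.0 and 19.98% in the naive libraries. Klrk1, the gene of NKG2D, was covered at 100, 100 and 99.5% in the Th1 libraries, at 0, 1.62 and 6.17% in the Th2 libraries and at 19.99, 36.4 and 24.3% in the naive libraries. For both genes the 3 groups did not overlap: Th1 libraries were the highest, naive libraries lay between and Th2 libraries were the lowest. Lower coverage in Th2 than in naive cells was common: with no minimum difference 47.5% of all 11597 tested genes were called lower. The share of genes with every naive library above every Th2 library was not counted. Klrd1 was 80.7 points higher in Th1 than in naive cells (SE 1.82, limma adjusted p = 4.5e-08) and 92.5 points higher in Th1 than in Th2 cells (SE 1.82, limma adjusted p = 1.1e-07). Klrk1 was 73.0 points higher in Th1 than in naive cells (SE 4.03, limma adjusted p = 3.8e-06) and 97.3 points higher in Th1 than in Th2 cells (SE 4.03, limma adjusted p = 6.1e-06).

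The differences of Klrd1 and Klrk1 between Th2 and naive cells were smaller than the 25 points set for a call. They were -11.8 points for Klrd1 (SE 1.82, limma adjusted p = 0.00088) and -24.3 points for Klrk1 (SE 4.03, limma adjusted p = 0.0013). No member was called in either direction by limma between Th2 and naive cells, Klrd1 and Klrk1 being the 2 with an unadjusted p under 0.05, where 4.26% of tested genes were called higher and 15.4% lower. Of the tested members only Klrk1, at a naive mean of 26.9%, could be called lower. Klrd1 averaged 19.3% and the others 0% in naive cells, too low to fall by 25 points. The absence of lower calls is thus largely fixed beforehand. Klrk1 was called lower in Th2 cells when Th2 replicate 3, naive replicate 1 or naive replicate 3 was left out, at -26.1, -27.8 and -25.6 points. When each library was reduced to its strongest peaks so that all 9 covered the same length, Klrd1 and Klrk1 were at 0% in all 3 naive libraries, and the Klrd1 difference turned to 1.73 points (limma adjusted p = 0.4).

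Among the genes of the NKG2 chains, inhibitory Klrc1 was covered at 90.3, 89.7 and 75.5% in the Th1 libraries and at 0% in every Th2 and naive library. Activating Klrc3 was covered at 80.3, 78.4 and 56.3% in the Th1 libraries and at 0% in every Th2 and naive library. The neighbouring Klrc2, also activating, was covered at 71.1, 41.0 and 19.3% in the Th1 libraries and at 0% in every Th2 and naive library. All 3 genes were thus marked in Th1 libraries alone, with the third Th1 library the lowest in each and Klrc2 the most uneven. Their differences from naive cells, which equal those from Th2 cells, were 85.1 points for Klrc1 (SE 3.65, limma adjusted p = 1e-06 against naive and 7.1e-06 against Th2), 71.7 points for Klrc3 (SE 5.70, limma adjusted p = 2.4e-05 and 0.00017 in that order) and 43.8 points for Klrc2 (SE 11.03, limma adjusted p = 0.01 and 0.035 in that order). The fit pools the spread of the 3 groups, and Th2 and naive cells had none in these genes. These SEs thus understate the Th1 spread, and the p-values rest on them. The Th1 SD was 8.36 points for Klrc1, 13.3 for Klrc3 and 26.0 for Klrc2.

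The calls of Klrc3 and Klrc2 were less firm than that of Klrc1. When peaks with a −log10 q under 5 were dropped, the differences of Th1 from naive and from Th2 cells were 26.8 points for Klrc3 (limma adjusted p = 0.31 and 0.62) and 12.9 points for Klrc2, so that neither was called. The Klrc2 call against Th2 cells was lost in 11 of 17 alternatives, also with peaks joined over 1 kb (limma adjusted p = 0.051), with a replicate block (0.058), with genes of 1 value in all libraries kept and no variance trend (0.12), without Th1 replicate 2 (0.084), without any single Th2 library (0.088 to 0.09) and without any single naive library (0.062 to 0.063). The 3 Klrc genes are paralogs, and the handling of reads with more than 1 match was not given in the sources used here, so the split of signal between Klrc3 and Klrc2 is uncertain.

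Klre1, the gene at the other end of the cluster, was covered at 96.2, 89.7 and 79.5% in the Th1 libraries, at 1.00, 1.47 and 2.14% in the Th2 libraries and at 0% in the naive libraries. Klre1 was the 1 member with every Th2 library above every naive library, as in 14.7% of the tested genes, by a single short peak in each, and the Th1 libraries lay far above both. Klre1 was 88.5 points higher in Th1 than in naive cells (SE 3.69, limma adjusted p = 8.7e-07), 86.9 points higher in Th1 than in Th2 cells (SE 3.69, limma adjusted p = 6.7e-06) and 1.54 points higher in Th2 than in naive cells (SE 3.69, limma adjusted p = 0.75). In all 6 cluster genes Th1 coverage ordered the libraries in the order of their total covered length, with ties at 100%. The totals were 240.1, 222 and 217 Mb in Th1 replicates 1, 2 and 3, and the part of this in the spread among Th1 libraries was not tested.

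The lone members behaved otherwise. Klrb1c, the NK1.1 gene, was covered at 0, 0 and 2.46% in the Th1 libraries and at 0% in every Th2 and naive library (0.820 points for Th1 against naive cells, SE 0.636, limma adjusted p = 0.3). The single Th1 value came from a peak of 0.25 kb with a fold enrichment, as the authors' caller gave it, of 1.87. Klrg1 was listed at 0% throughout, and its nearest peak in 7 of the 9 libraries lay 26.1 to 26.2 kb away, and in Th1 replicates 1 and 2 short peaks lay 10.1 and 13.3 kb away. The more distant peak lay over M6pr, a mannose 6-phosphate receptor gene covered at 58.9 ± 8.35% in Th1, 53.8 ± 5.25% in Th2 and 60.02 ± 6.79% in naive cells (SD, n = 3 each). Phc1, a Polycomb gene beside it, was covered at 7.57 ± 1.98% in Th1, 4.29 ± 3.25% in Th2 and 30.8 ± 0.944% in naive cells (SD, n = 3 each), and was called lower in Th2 than in naive cells (-26.5 points, limma adjusted p = 9.8e-06). Klrb1b, the neighbour of Klrb1c, was at 0% in all libraries.

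In Th1 cells peaks covered most of the cluster, the genes more than the spaces between them. From the first base of Klre1 to the last base of Klrc1, 123.488 kb, peaks covered 77.2 ± 9.52% in Th1, 1.48 ± 0.588% in Th2 and 5.71 ± 0.749% in naive cells (SD, n = 3 each). The 6 gene bodies together were covered at 83.8 ± 8.51% in Th1, 1.82 ± 1.00% in Th2 and 6.65 ± 1.09% in naive cells, and the spaces between them at 62.1 ± 11.9% in Th1, 0.696 ± 0.722% in Th2 and 3.57 ± 0.248% in naive cells. The space between Klre1 and Klrd1 was covered at 100% in all 3 Th1 libraries, and the mean Th1 coverage of the spaces that follow was 85.5% up to Klrk1, 64.6% up to Klrc3, 16.7% up to Klrc2 and 40.9% up to Klrc1. The best covered spaces thus lay on both sides of Klrd1 and the least covered one between Klrc3 and Klrc2.

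**Figure D2:**
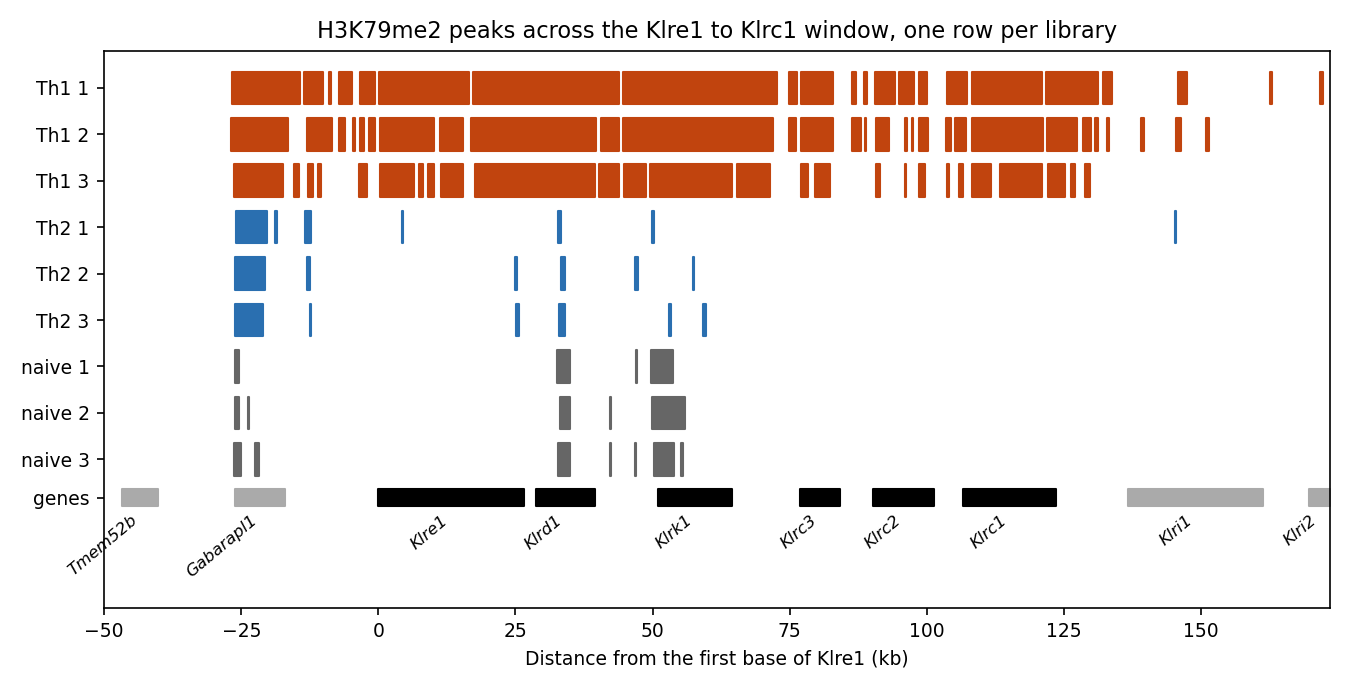
H3K79me2 peaks in each library (rows, Th1 at the top, then Th2 and naive) against distance from the first base of Klre1 in kb, with the 6 cluster genes in black and other protein-coding genes in grey. Long Th1 blocks run through Klre1, Klrd1 and Klrk1 and again over Klrc1, while Th2 and naive rows hold short blocks over Gabarapl1 and Klrd1. Each naive row also has a block at the 3′ end of Klrk1, and each Th2 row a small block in Klre1.

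In a window that adds 50 kb to each side of the cluster, peaks covered 138, 125 and 98.7 kb in the Th1 libraries, 8.34, 7.99 and 7.86 kb in the Th2 libraries and 7.14, 9.17 and 8.75 kb in the naive libraries. Every Th1 library held more than 90 kb in the window and every other library less than 10 kb, and the Th2 and naive libraries overlapped. The difference was 112.3 kb for Th1 against naive cells and 113 kb for Th1 against Th2 cells (2-sided exact permutation p = 0.1 each, adjusted p = 0.15 over 3 comparisons, 0.1 being the smallest p that 3 libraries against 3 allow). It was -0.292 kb for Th2 against naive cells (exact permutation p = 0.7, adjusted p = 0.7), and this turned to 4.20 kb when peaks with a −log10 q under 5 were dropped and to 5.71 kb with matched covered length. The window held 46 tiles of 5 kb, of which 7 had 1 value in all libraries and 39 were tested. Of these 39, 27 were at 0% in all Th2 and naive libraries and so entered the test through Th1 coverage alone, which makes their number no measure of the change. Among the 39, 28 were called higher in Th1 than in naive cells and 27 higher in Th1 than in Th2 cells, against 7.68% and 2.95% of all 84522 tested tiles, and 0 were called lower in either comparison, against 26.2% and 5.80%. A lower call needs a mean of at least 25% in the other group. Only the tiles with means of 41.3 and 77.7% in naive cells, and of 35.3 and 73.6% in Th2 cells, reached it. The 0 called lower was thus largely fixed beforehand. With tiles of 1 value in all libraries kept in the fit, and no variance trend, 23 and 21 were called higher. Between Th2 and naive cells 1 tile was called higher and 2 lower, against 9.04% and 23.6% of all tested tiles. The 2 called lower were those with naive means of 41.3 and 77.7%, the only ones that could be.

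When peaks less than 1 kb apart were joined, the longest Th1 domains were 76.1, 55.0 and 46.9 kb long (chr6:129556020-129632070, chr6:129576315-129631303 and chr6:129576918-129623841). Each of them touched Klre1, Klrd1 and Klrk1 and ended before Klrc3. A separate domain over Klrc1 reached 30.1 and 23.8 kb in Th1 replicates 1 and 2. The longest joined domains of the window were 5.72, 5.48 and 5.13 kb in the Th2 libraries and 3.92, 6.04 and 3.73 kb in the naive libraries.

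Base by base, 78.7 kb of the window (35.2%) was covered in all 3 Th1 libraries and in no Th2 or naive library. All 11.4 kb covered in any naive library was also covered in all 3 Th1 libraries, so that naive cells held no stretch that Th1 cells lacked. The naive libraries shared 2 stretches within the cluster, 1.74 kb inside Klrd1 (chr6:129592483-129594225) and 3.49 kb at the 3′ end of Klrk1 (chr6:129609549-129613037). The Th2 libraries shared 0.122 kb there, inside Klrd1, and in the flank 5.06 kb over Gabarapl1.

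Members with a matched promoter window, from which the strand was taken, were split into 10 equal bins from the 5′ end. Klrd1 and Klrg1 had no such window and were left out. Naive coverage of Klrk1 was 0% in each of the first 6 bins, 29.8 ± 32.2% and 39.2 ± 53.4% in the next pair and 100% in both bins at the 3′ end (SD, n = 3). Th1 coverage of Klrk1 was 98.5 ± 2.64% in the first bin and 100% in all others. Th1 coverage of Klrc1 was 90.6 ± 8.78% in the first bin and 33.5 ± 20.9% in the last, with 100% in 6 bins between. Klrk1 was thus marked at its 3′ end alone in naive cells and from end to end in Th1 cells, while Klrc1 was marked from its 5′ end in Th1 cells.

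The 5′ ends of Klrc3 and Klrc2 were bare in Th1 cells. The first bin was at 0% in all 3 Th1 libraries for both genes, and the second bin was at 14.5 ± 13.0% for Klrc3 and 75.3 ± 23.6% for Klrc2 (SD, n = 3). No Th1 library had a peak in 3.46 kb around the start of Klrc3 (chr6:129642245-129645703) or in 3.43 kb around that of Klrc2 (chr6:129659504-129662936), the longest Th1 gaps within the cluster. These 2 gaps hold the near-identical windows printed above, and whether reads of more than 1 match were lost there was not tested.

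**Figure D3:**
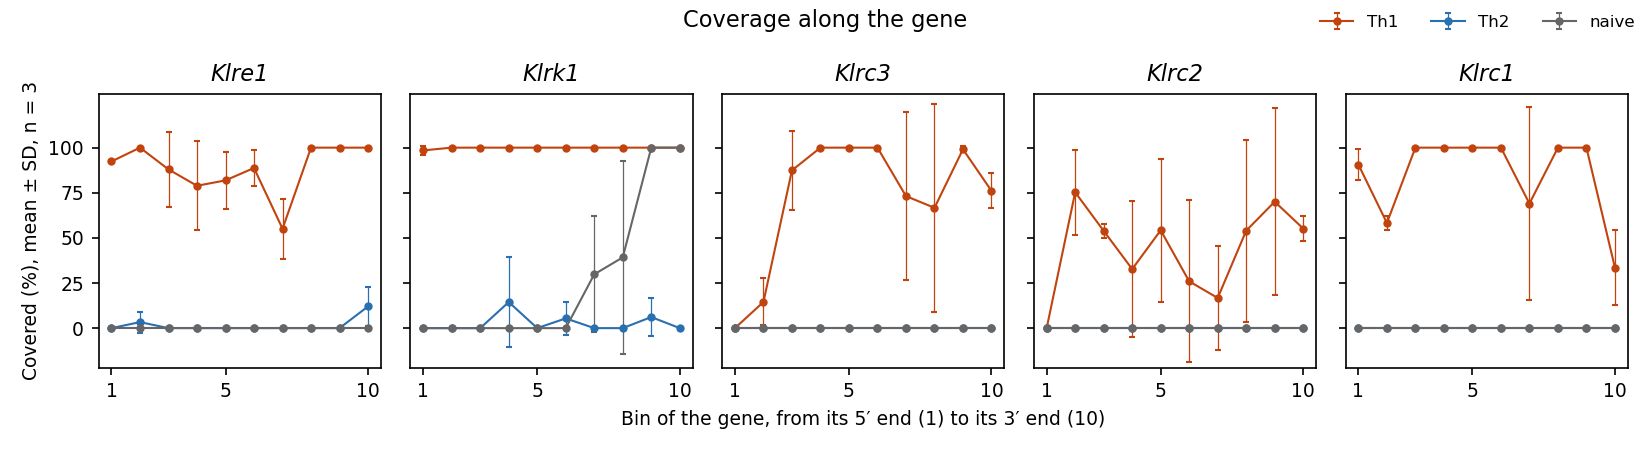
Mean percent covered ± SD of 3 libraries (vertical axis) in each of 10 equal bins of the gene from its 5′ end (horizontal axis) for Klre1, Klrk1, Klrc3, Klrc2 and Klrc1. Th1 coverage of Klrk1 is flat near 100%, naive coverage of Klrk1 reaches 100% in the last bins alone, and the first bin of Klrc3 and Klrc2 is at 0% in every group.

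Peaks over the cluster ranked differently in the Th1 lists from gene to gene, highest over Klrc1 and lowest over Klrc3. The fold enrichment of the strongest peak, the authors' own value within each list, was 4.15 to 5.81 over Klrc1 in the Th1 libraries, above 88.0 to 91.7% of the peaks of the same list. Over Klrk1 it was 3.82 to 4.83 in the Th1 libraries (above 86.2 to 88.1% of the list), 1.89 and 1.98 in the 2 Th2 libraries with a peak there (above 14.4 and 31.9%) and 2.23 to 2.37 in the naive libraries (above 53.0 to 61.8%). A single peak ran through Klrd1 and the end of Klre1 in each Th1 library, with a fold of 3.33 to 4.48 (above 83.0 to 86.8%), while Klrd1 peaks had folds of 1.87 to 2.16 in the Th2 libraries (above 11.1 to 49.8%) and 2.42 to 2.92 in the naive libraries (above 67.0 to 77.1%). In the Th1 libraries the strongest Klrc2 peak had a fold of 2.90 to 3.76 (above 78.8 to 83.3%) and the strongest Klrc3 peak a fold of 2.37 to 3.22 (above 64.0 to 79.9%).

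Counted in genes, though not in 5-kb tiles, the cluster formed the longest run called higher in Th1 cells. Gabarapl1, Klre1, Klrd1, Klrk1, Klrc3, Klrc2 and Klrc1, 7 genes in a row, were called higher than in both naive and Th2 cells. The 123 genes called against both fell into 99 runs, of which 85 were single genes and the next longest, 5 of them, held 3 genes. The 7-gene run was also the longest of 440 runs against naive cells alone, where the next held 4 genes, and of 147 runs against Th2 cells alone. Genes under one domain are not independent of each other. Counted in tiles, the run of tiles called higher in Th1 than in Th2 cells that holds the 3′ end of Klrk1 was 18 tiles (90 kb) long, and 2 of the 1491 runs were longer, the longest with 28 tiles. Against naive cells the tile at the 3′ end of Klrk1, where naive cells also had peaks, was not called and broke the run, and the longest run in the genome held 45 tiles. The run was 5 genes where the Klrc2 call was lost and 4 when peaks with a −log10 q under 5 were dropped, and with no minimum difference 1 run was longer.

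**Figure D4:**
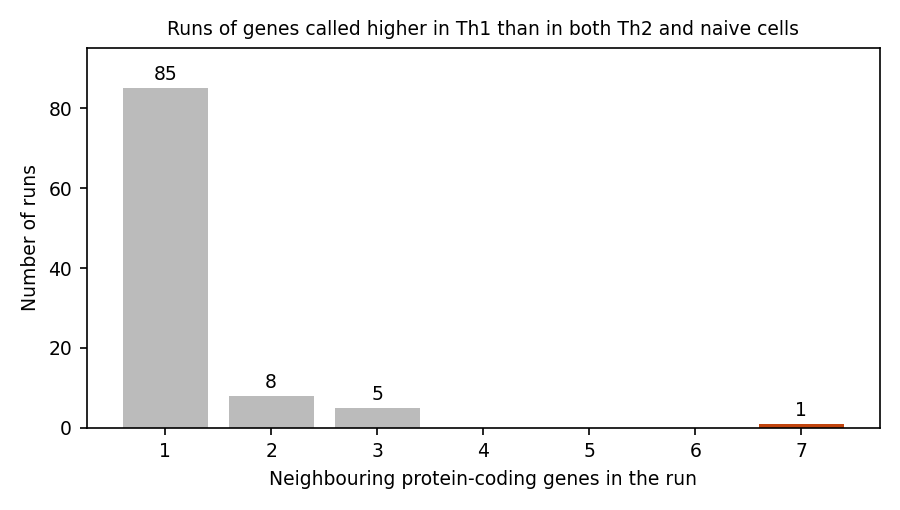
Number of runs (vertical axis) by the number of neighbouring protein-coding genes in the run (horizontal axis), for genes called higher in Th1 than in both Th2 and naive cells. Bars mark 85 single genes, 8 runs of 2 genes, 5 runs of 3 genes and, in red, the run of 7 genes that holds the receptor cluster.

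Gabarapl1, an autophagy gene of the ATG8 family that precedes Klre1, showed a graded pattern. Gabarapl1 was covered at 100, 100 and 96.0% in the Th1 libraries, at 65.3, 59.4 and 56.1% in the Th2 libraries and at 8.36, 11.2 and 21.3% in the naive libraries, with no overlap between groups. Of all tested genes, 14.2% had every Th1 library above every naive library. The share was 14.7% for Th2 above naive and 13.9% for Th1 above Th2 libraries. It was called higher in Th1 than in naive cells (85.1 points, SE 3.81, limma adjusted p = 1.3e-06), in Th2 than in naive cells (46.6 points, limma adjusted p = 3e-05) and in Th1 than in Th2 cells (38.4 points, limma adjusted p = 0.00054). On the other side, Klri1 and Klri2, whose products pair with KLRE1 in rodents, reached means of 4.93% and 3.13% in Th1 cells and were not called. The flank before Klre1 was covered at 34.9 ± 8.53% in Th1, 12.3 ± 1.71% in Th2 and 2.60 ± 1.37% in naive cells, and the flank after Klrc1 at 15.6 ± 8.32% in Th1, 0.151 ± 0.261% in Th2 and 0% in naive cells (SD, n = 3 each).

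The rest of the killer lectin-like and NK complex genes of the list, 36 that are not members, were mostly bare. Coverage was 0% in all 9 libraries for 21 of them, and 14 could be tested. Of the 14, Gabarapl1 and Clec2g were called higher in Th1 than in naive cells, against 4.38% of all tested genes. Clec2g was covered at 31.6 ± 1.57% in Th1, 11.3 ± 2.50% in Th2 and 0% in naive cells (SD, n = 3 each; 31.6 points, limma adjusted p = 9.4e-07). Gabarapl1 was the single gene of the list called higher in Th2 than in naive cells (background 4.26%) and in Th1 than in Th2 cells (background 1.56%). The Klra genes, which encode the Ly49 receptors of mouse NK cells, had Th1 means of 0.851% at most. Clec2d, a gene for a ligand of NKR-P1 receptors, was at 100% in all libraries.

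The partner genes of the receptors held no gene called higher in Th1 cells. This was in part fixed beforehand, as several were too well covered in naive cells to rise by 25 points. Tyrobp, Pik3r1, Plcg1, Zap70 and Vav1 averaged 100, 98.6, 97.1, 87.2 and 86.9% there. Of 25 listed ligand, adaptor and signalling genes, 22 had a position and 12 could be tested, of which 0 were called higher by limma in Th1 than in naive cells and 2, Tyrobp and Plcg1, were called lower (1 higher and 7 lower at an unadjusted p under 0.05). Over all tested genes 4.38% were called higher and 16.3% lower, so 2 of 12 lower is near the background. Their median difference was -6.78 points, beside -5.55 points over all tested genes, and for Th1 against Th2 cells it was 1.97 points beside -0.018, with 0 called higher and 2, Tyrobp and Syk, called lower (4 higher and 2 lower at an unadjusted p under 0.05). Hcst, which encodes the NKG2D adaptor DAP10, H2-T23, which encodes the CD94-NKG2 ligand Qa-1, and Ptpn6, which encodes the phosphatase SHP-1, were at 100% in all libraries. The share called between Th1 and Th2 cells over all tested genes was 1.56% higher and 2.08% lower. Between Th2 and naive cells 0 partner genes were called by limma (0 higher and 5 lower at an unadjusted p under 0.05), against 4.26% higher and 15.4% lower over all tested genes, with a median of -5.44 points beside -5.50.

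Tyrobp, which encodes the adaptor DAP12, was covered at 55.4, 42.1 and 37.4% in the Th1 libraries, at 100, 100 and 78.95% in the Th2 libraries and at 100% in the naive libraries. Th1 libraries were the lowest, with a difference of -55.0 points from naive cells (SE 6.55, limma adjusted p = 0.00021) and -48.0 points from Th2 cells (SE 6.55, limma adjusted p = 0.0026). Syk, a kinase recruited by DAP12, was covered at 0, 0 and 0.443% in the Th1 libraries, at 15.9, 24.2 and 40.8% in the Th2 libraries and at 23.9, 22.1 and 26.9% in the naive libraries, and was called lower in Th1 than in Th2 cells (-26.8 points, limma adjusted p = 0.016). Zap70, its relative in T cells, was at 89.5 ± 3.29% in Th1, 83.8 ± 0.719% in Th2 and 87.2 ± 1.38% in naive cells (SD, n = 3 each). Plcg1, a phospholipase gene that overlaps another gene, was called lower in Th1 than in naive cells (-25.2 points; 72.0 ± 4.66% in Th1 and 97.1 ± 1.46% in naive cells, SD, n = 3 each, limma adjusted p = 5.7e-05). The NKG2D ligand genes Raet1d, Raet1e, H60b and H60c were at 0% throughout, and the ligand gene Ulbp1 averaged 69.4% in Th1, 67.8% in Th2 and 71.6% in naive cells.

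Of 11 genes for transcription factors known to act on receptors of this family, 9 could be tested. Among them 5 were called higher in Th1 than in naive cells, against 4.38% of all tested genes, with a median of 47.4 points over the 9 beside -5.55 over all tested genes, and 4 of the 5 were also called higher in Th2 than in naive cells, against 4.26% (median 22.5 points beside -5.50). Tbx21, which encodes T-bet, was covered at 100% in Th1, 99.9 ± 0.160% in Th2 and 0% in naive cells, and Runx3 at 98.9 ± 1.06% in Th1, 88.9 ± 8.33% in Th2 and 40.3 ± 1.72% in naive cells (SD, n = 3 each). Zeb2 and Nfil3 were the others called in both. Of the 9, Eomes alone was called higher in Th1 than in Th2 cells, against 1.56% of all tested genes.

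Eomes, a T-box factor of NK and CD8 T cells, was covered at 42.7, 42.7 and 56.7% in the Th1 libraries, at 0, 3.01 and 14.5% in the Th2 libraries and at 0% in the naive libraries. The Th1 libraries lay above all others, as they did above Th2 libraries in 13.9% and above naive libraries in 14.2% of tested genes. The difference was 41.5 points against Th2 cells (SE 4.75, limma adjusted p = 0.0011) and 47.4 points against naive cells (SE 4.75, limma adjusted p = 8.3e-05). Gata3, the Th2 factor, was called lower in Th1 than in Th2 cells, at 59.7 ± 1.87% in Th1 and 97.8 ± 1.89% in Th2 cells, with 75.3 ± 1.18% in naive cells (SD, n = 3 each; -38.1 points, limma adjusted p = 4.7e-06). Over the 9 factors the median difference of Th1 from Th2 cells was 0.092 points.

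**Figure D5:**
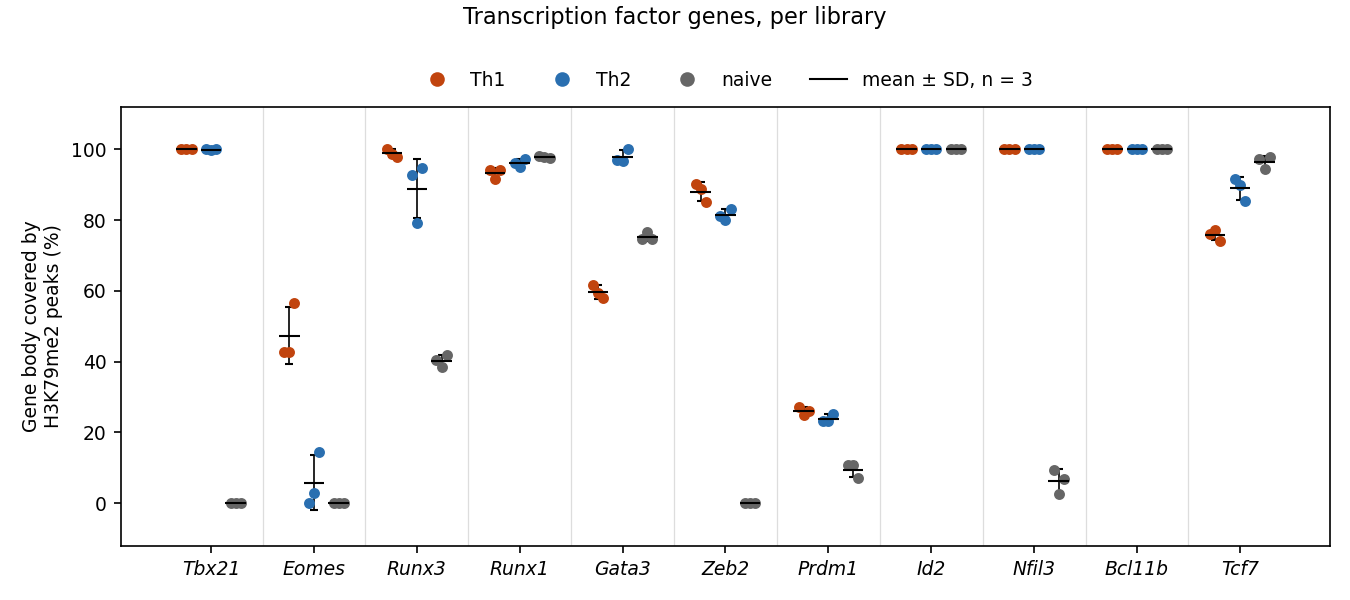
Percent of the gene body covered by H3K79me2 peaks (vertical axis) for 11 transcription factor genes, with 1 point per library and the mean ± SD of 3 libraries per group. Tbx21, Zeb2 and Nfil3 are high in both Th1 and Th2 libraries, while Eomes is at 42.7 to 56.7% in Th1 libraries and at most 14.5% in Th2 libraries.

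The genes outside the family whose 9 values came closest to those of a member were found by the mean absolute difference in coverage over the 9 libraries. For Klrd1 they were Ifng (8.02 points), the fatty acid receptor gene Ffar2 (8.29) and the chemokine gene Ccl3 (8.95), and for Klrk1 they were Ly6c2 (9.09), Ifng (9.43) and Ccl3 (9.88). Ifng is the gene whose reporter was used to sort the Th1 cells, and Ccl3 overlaps another gene. For Klre1 they were Fam20a (1.89 points), the interferon-induced Ifitm3 (2.33) and the IL-18 receptor gene Il18rap (3.42), and the same 3 genes came closest to Klrc1, at 2.94, 2.43 and 3.70 points. For Klrc3 they were Tmem159, Slc4a11 and Gcnt1 (2.42 to 3.89 points), and for Klrc2 they were Ifitm1, Fgl2 and Ceacam16 (1.09 to 3.74 points). Among the members, Klre1 and Klrc1, at opposite ends of the cluster, differed by 1.63 points on this measure and Klrd1 and Klrk1 by 4.43 points, while Klrc2 lay 9.30 points from Klrc3.

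Over the whole series the lists held 41504 to 46085 peaks in Th1, 45894 to 51854 in Th2 and 38026 to 40455 in naive cells, which covered 217 to 240.1 Mb, 232 to 249.9 Mb and 276 to 285 Mb in those groups, at a read depth that is unknown. The median difference over all tested genes was -5.55 points for Th1 and -5.50 points for Th2 against naive cells, and -1.32 and -1.92 points with matched covered length. Summed coverage of 6 T lineage genes was 581 to 586% in Th1, 580.0 to 584% in Th2 and 566 to 585% in naive libraries. Summed coverage of 8 NK and innate lymphoid genes was 43.0 to 62.2% in Th1, 102 to 105% in Th2 and 131 to 152% in naive libraries, 5 of them at 0% in all Th1, 5 in all Th2 and 6 in all naive libraries. Most of each sum was Tyrobp, at means of 45.0% in Th1, 93.0% in Th2 and 100% in naive cells. Gzma made up the rest in naive libraries. Tyrobp lies beside Hcst, which was at 100% in all libraries. Of these 8, 4 could be tested and 0 were called higher by limma in Th1 than in naive cells (1 at an unadjusted p under 0.05, background 4.38%) or than in Th2 cells (0 at that p, background 1.56%). Gzma, a granzyme gene that overlaps another gene, was called lower in Th1 than in naive cells, at 0% in Th1, 6.56 ± 11.4% in Th2 and 41.4 ± 10.8% in naive cells (-41.4 points, limma adjusted p = 0.001), as was Tyrobp, against 16.3% of all tested genes called lower, and the defining genes Ncr1, Klra8 and Klra4 were at 0% in all 9 libraries. Summed coverage of Cd8a and Cd8b1 was 7.55 to 11.9% in Th1, 24.8 to 39.2% in Th2 libraries, and both of these defining genes of CD8 T cells were at 100% in every naive library, against the CD4+ label of these cells, with Cd8a at 0% in all Th1 libraries. Zbtb16, the gene of the NKT factor PLZF, which overlaps another gene, was at 57.3, 5.05 and 0% in the Th1 libraries, at 54.9, 38.1 and 82.5% in the Th2 libraries and at 0% in the naive libraries. The B cell gene Cd79b was at 0% in Th1, 0% in Th2 and 54.3 ± 25.9% in naive cells, the other 4 B cell genes were alike in all libraries (Cd79a at 100%, the other 3 at 0%), and the erythroid factor gene Klf1 was at 21.7 ± 1.91% in Th1, 31.5 ± 12.4% in Th2 and 0% in naive cells (SD, n = 3 each). Covered length, the CD8 genes, Gzma, Cd79b and Klf1 thus moved with the comparison of Th1 and naive cells, and their part in the results was not tested.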

How the data were processed

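The members and gene lists were chosen with earlier results of these data known. H3K79me2 was mapped in 9 libraries, and 9 input libraries carried no peak list. The tools named were Bowtie2, SAMtools, Picard and MACS2, with the build mm10, per the submitters' processing notes. Their versions and settings, and whether inputs served in peak calling, are not given in the sources used here. The authors deposited a broad peak list per library, each peak with its position, its score, its fold enrichment as a ratio over background, and its p and q as −log10 values. In the deposited lists the score equals the −log10 q times 10, cut to a whole number. Folds rank peaks within a list, and −log10 q values filter them.

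Peaks on chromosomes 1 to 19 and X were merged, and the percent covered was computed for each RefSeq gene and 5-kb tile. Features with 1 value in all libraries were left out, because the variance trend could not be fitted with them. Single fits of the 9 libraries were made in limma 3.58.1 (R 4.3.3; eBayes with a trend, 6 residual degrees of freedom, tested on simulated data). Genes without spread within all 3 groups owe their p-values to the variance borrowed from other genes. For the rest, the spread of the 3 groups is pooled for each gene and moderated by that of other genes. Coverage saturates at 0 and 100%. Permutation tests used SciPy 1.17.1, and windows were aligned with Biopython 1.88. At most 1 peak with identical coordinates was shared by any of the 36 pairs of lists, so no list was a copy of another. Each library was counted as 1 sample, though this check cannot show that libraries came from different mice. All members, genes near them, listed genes and the 3 genes closest in pattern to each called member are named. Alternatives were a −log10 q minimum, matched covered length, joined peaks, genes widened by 2 kb, no trend, no minimum difference, a replicate block and each library left out.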

Additional observations from a re-analysis of the deposited data

Results flagged for a closer look

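For 6 receptor genes the change from naive cells differed between Th1 and Th2 cells. The difference between both changes, which is the difference of Th1 from Th2 cells because the naive libraries are shared, was tested in the limma fit of all 9 libraries. It was 97.3 points for Klrk1 (limma adjusted p = 6.1e-06), 92.5 points for Klrd1 (limma adjusted p = 1.1e-07), 86.9 points for Klre1 (limma adjusted p = 6.7e-06), 85.1 points for Klrc1 (limma adjusted p = 7.1e-06), 71.7 points for Klrc3 (limma adjusted p = 0.00017) and 43.8 points for Klrc2 (limma adjusted p = 0.035). In each of the 6 genes all 3 Th1 libraries lay above all 3 Th2 libraries, as in 13.9% of all tested genes. Klrc2 lost this call under 11 of 17 alternatives and Klrc3 under 1, that without peaks of −log10 q under 5.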

How the results depend on the processing

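Of 351 values of single members under the alternatives, 331 kept their side of the threshold without turning sign, 14 lost the call, 5 gained one and 1 turned sign, the Klrd1 difference of Th2 from naive cells at 1.73 points with matched covered length. Of the 331, 4 went to 0, the differences of Klre1 and Klrk1 between Th2 and naive cells without peaks of −log10 q under 5 and with matched covered length. The 331 also hold values that tested little. The differences of Klrc1, Klrc2, Klrc3 and Klrb1c between Th2 and naive cells were 0 to begin with and under every alternative. Leaving out a library of the third group could change the p-value but not the difference. When peaks with a −log10 q under 5 were dropped, called tiles of the window numbered 18 for Th1 against naive, 1 for Th2 against naive and 15 for Th1 against Th2 cells, and called members numbered 4 for Th1 against each other group. Members called between Th2 and naive cells numbered 2 with no minimum difference, Klrd1 and Klrk1. The window's covered length for Th2 against naive cells turned to 4.20 kb without peaks of −log10 q under 5, to 5.71 kb with matched length and to 0.117 kb without naive replicate 2. Leaving out 1 library gave 6 to 6 called members for Th1 against naive, 0 to 1 for Th2 against naive and 5 to 6 for Th1 against Th2 cells. It gave 26 to 32, 2 to 3 and 22 to 32 called tiles and 103 to 123 kb, -0.898 to 0.117 kb and 104 to 123 kb for these comparisons in the same order. Replicate numbers did not pair the libraries: the correlation of deviations of same-numbered libraries was -0.074 to 0.00149 over 9 pairs, and in 0 of 18 best matches between a library and another group was the number shared. With a replicate block 6, 0 and 5 members and 28, 3 and 24 tiles were called. With features of 1 value in all libraries kept and no trend, an alternative chosen after seeing the data, 6, 0 and 5 members and 23, 3 and 21 tiles were called. The runs of neighbouring genes under each setting were also added after seeing the data. Matched covered length raised the count of all genes called higher to 817 against 508 for Th1 and to 756 against 494 for Th2 against naive cells. Apart from the settings named for it, the cause of each change was not tested. With read depth unknown, no counting interval could be set, and a gene at 0% is one without a called peak.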
